A study of Mus musculus with 55 samples.

Results

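Optic nerve crush injures the axons of retinal ganglion cells, and the question here was how the response of the optic nerve head (ONH) differed between 3 weeks and 1 week after the crush. The crush effect of a gene is its log2 intensity in crushed minus contralateral ONHs of the same mice, and the measure described is the crush effect at 3 weeks minus that at 1 week. It was computed from 20 of the 55 samples of the series, chosen by their labels as crushed and contralateral ONHs at these times, with 5 samples in each of 4 groups. C57Bl/6 female mice, 6 to 8 weeks of age at surgery, had the left optic nerve crushed for 10 s at 1 mm behind the globe and were killed 3 weeks or 1 week later. The right eye of the same animals, without surgery, gave the contralateral control. Each sample pooled 2 ONHs, so that the left and the right eyes of 2 mice formed a pair and 10 mice stood behind a time. Different mice were used at the different times. RNA came from whole tissue, in which unmyelinated and newly myelinated stretches of axon lie together after the surrounding coats have been removed, and no cell type was isolated from it. Fewer cells of a type and less RNA per cell therefore cannot be told apart. All 20 samples belonged to a single processing batch.

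In the mouse the glial lamina is built by astrocytes, whose processes bundle the unmyelinated axons of the ganglion cells before oligodendrocytes wrap them further back. When the axons are cut or crushed they degenerate, and microglia, infiltrating macrophages and other leukocytes gather, divide and take up the debris of axons and myelin. Astrocytes enlarge, change their gene expression and form part of the scar.

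The tissue carried the transcripts named for it. Gfap, the intermediate filament of astrocytes, had intensities of 6722 to 8630.1 in crushed and 7946 to 9622 in contralateral ONHs at 3 weeks, against 7774 to 9478 in crushed and 9186 to 11271 in contralateral ONHs at 1 week. Mbp, myelin basic protein, lay at 10027 to 12571 in crushed and 10991 to 14563 in contralateral ONHs at 3 weeks, against 9520.0 to 11252 in crushed and 13367 to 14759 in contralateral ONHs at 1 week. The change of crush effect was 0.15 for Gfap and 0.16 for Mbp, and neither passed the test. Cd68, a lysosomal glycoprotein of phagocytes, had a crush effect of 1.57 at 3 weeks and 2.04 at 1 week, a change of -0.47 (SE 0.23, limma adjusted p = 0.189). The median intensity of the 20 arrays ran from 467 to 554. Transcripts of photoreceptors, which lie outside the ONH, were present at very uneven levels, with a mean log2 level over 19 genes of 6.26 to 11.62 in crushed and 5.76 to 11.51 in contralateral ONHs at 3 weeks, and 5.60 to 11.63 in crushed and 5.58 to 12.44 in contralateral ONHs at 1 week. All 4 groups held samples rich and poor in them.

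Of 10763 genes tested, 517 were called (4.8%) at a limma adjusted p under 0.05 and a change of at least 2-fold. The crush effect was higher at 3 weeks than at 1 week for 183 (1.7%) and lower for 334 (3.1%). In probe sets these were 271 higher and 598 lower of 19313 (4.5% called in all, 1.4% higher and 3.1% lower). With quantile normalization between the arrays the split was 363 higher and 505 lower. The median change over all genes tested was -0.00053. Most of the genes called lower had risen at 1 week: of the 334, 288 were called up at 1 week and 41 at 3 weeks, against a background of 6.53% and 2.76% of all genes. Their median crush effect was 0.19 at 3 weeks and 1.88 at 1 week. The genes called higher were more mixed. Of the 183, 83 were called down at 1 week (background 3.92%) and 38 were called up at 3 weeks (background 2.76%), while 64 were called at neither time. Their median crush effect was 0.37 at 3 weeks and -0.90 at 1 week. These counts describe how the change was made up and are no separate test, since the change contains both effects.

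**Figure D1:**
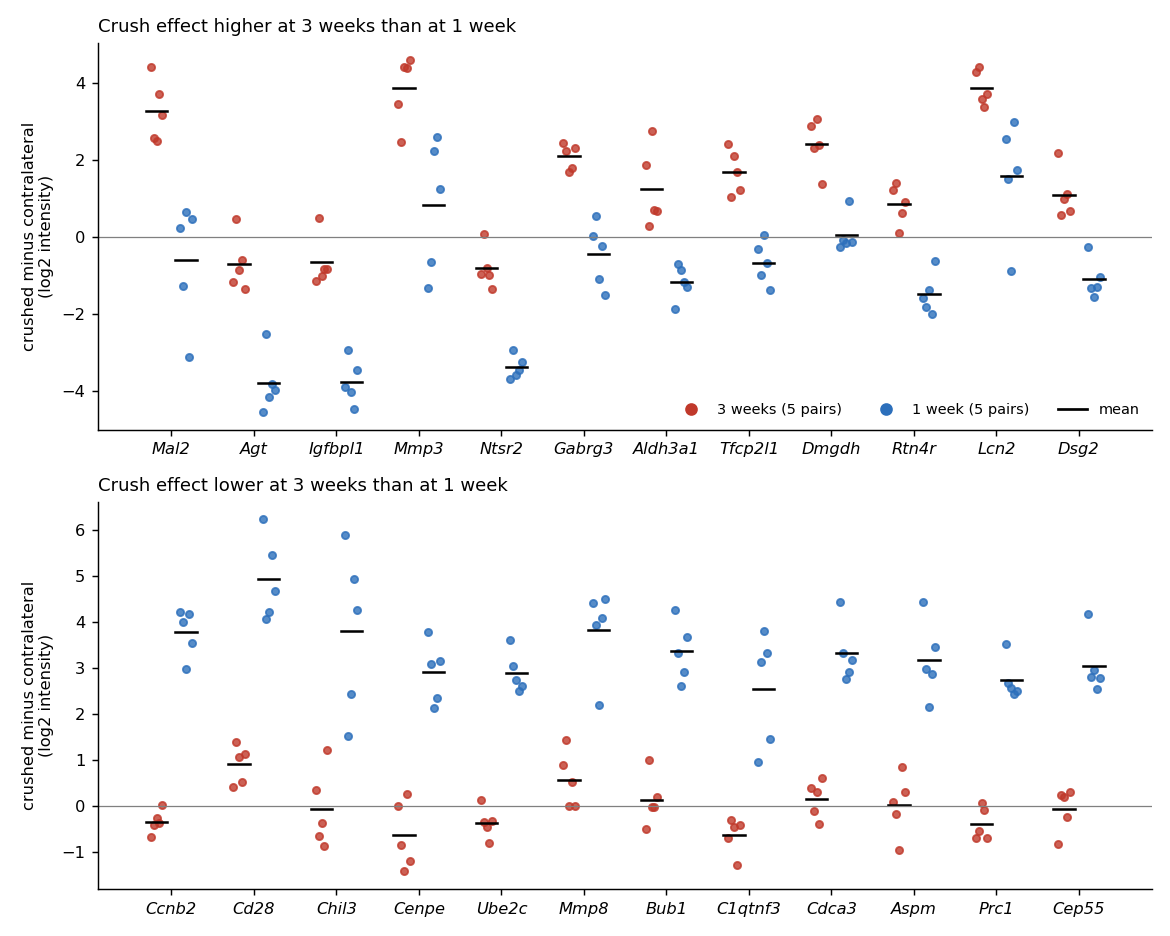
Crushed minus contralateral log2 intensity of each pair at 3 weeks (red) and 1 week (blue) for the 12 genes with the most positive change (top) and the 12 with the most negative change (bottom), with a black bar for the mean of 5 pairs. In the lower panel the means at 1 week lie between 2.53 for C1qtnf3 and 4.93 for Cd28, and those at 3 weeks lie between -0.65 for Cenpe and 0.90 for Cd28.

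Genes of cell division were the list with the largest share of called members among the 34 lists examined. Of 36 mitosis genes tested, 34 had a lower crush effect at 3 weeks (background 3.1%), none a higher one, and the median change was -2.46 against -0.00053 over all genes. At 1 week 34 of the 36 were called up with a median crush effect of 2.48, and at 3 weeks none was up, 2 were called down and the median was 0.067. Ccnb2, the cyclin B2 that activates the kinase of mitotic entry, had the most negative change of all genes. Its intensities were 42.5, 60.1, 53.0, 75.3 and 77.1 in crushed and 68.2, 79.9, 63.8, 96.9 and 76.5 in contralateral ONHs at 3 weeks, against 995, 1175, 935, 1096 and 1120.0 in crushed and 53.0, 73.3, 119, 60.7 and 95.8 in contralateral ONHs at 1 week. The crushed samples at 1 week stood above all 15 others, and the other 3 groups overlapped. The crush effect of Ccnb2 was -0.34 at 3 weeks and 3.79 at 1 week, a change of -4.13 (SE 0.30, limma adjusted p = 6.18e-08).

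Other members of the division machinery moved with it. Cenpe, a kinesin of the kinetochore, had 19.9, 28.2, 24.1, 27.7 and 24.2 in crushed and 15.1, 51.1, 64.8, 23.2 and 55.6 in contralateral ONHs at 3 weeks, against 286, 261, 254, 253 and 267 in crushed and 20.6, 30.8, 57.8, 49.6 and 29.9 in contralateral ONHs at 1 week. No crushed sample at 3 weeks reached the lowest crushed sample at 1 week, and the change was -3.55 (SE 0.46, limma adjusted p = 5.62e-05). Ube2c, the ubiquitin-conjugating enzyme that serves the anaphase-promoting complex, ranged over 144 to 222 in crushed and 155 to 285 in contralateral ONHs at 3 weeks, against 1204 to 1519 in crushed and 124 to 249 in contralateral ONHs at 1 week, a change of -3.26 (SE 0.28, limma adjusted p = 4.25e-07). Bub1, a kinase of the spindle checkpoint, changed by -3.24 (SE 0.44, limma adjusted p = 8.43e-05), and its intensities were under 50 in every sample but the crushed ones at 1 week and contralateral sample 3 at 1 week. Aspm, Prc1 and Cep55, proteins of the spindle pole, the central spindle and the midbody, changed by -3.16 (SE 0.43), -3.13 (SE 0.28) and -3.12 (SE 0.42), and Cdca3, which promotes entry into mitosis, by -3.17 (SE 0.38). The proliferation antigen Mki67 changed by -3.07 (SE 0.31). Those of the 36 that were not called were Bub1b, a checkpoint kinase, with -1.25 (SE 0.59, limma adjusted p = 0.162), and the actin-binding anillin Anln with -0.51 (SE 0.29, limma adjusted p = 0.249). Spag5, a protein of the spindle, was called lower in another way, with a crush effect of -1.38 at 3 weeks and 0.13 at 1 week. The change lay on the injured side. Between 3 weeks and 1 week the crushed ONHs were lower for 34 of the 36 genes (background 3.8% lower), with a median of -2.52, and the contralateral ONHs for none (background 0.372% lower), with a median of -0.075.

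Fewer genes of DNA replication were called. Of 40 genes tested, 6 had a lower crush effect at 3 weeks and none a higher one (background 3.1% lower and 1.7% higher), and the median change was -0.44. Tk1, thymidine kinase, changed most. Its intensities were 35.8 to 75.9 in crushed and 34.1 to 91.2 in contralateral ONHs at 3 weeks, against 424 to 518 in crushed and 32.7 to 110.5 in contralateral ONHs at 1 week, and its change was -2.96 (SE 0.45, limma adjusted p = 0.000254). Rrm2, the small subunit of ribonucleotide reductase, had 640.3 to 1073 in crushed and 382 to 1002 in contralateral ONHs at 3 weeks, against 3117 to 3833 in crushed and 594 to 1097 in contralateral ONHs at 1 week, a change of -1.67 (SE 0.33, limma adjusted p = 0.0023). Orc1 of the origin recognition complex changed by -1.06 (SE 0.29) and the licensing factor Cdt1 by -1.03 (SE 0.29), and these calls were lost on omission of any of 4 pairs for Orc1 and any of 5 for Cdt1.

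**Figure D2:**
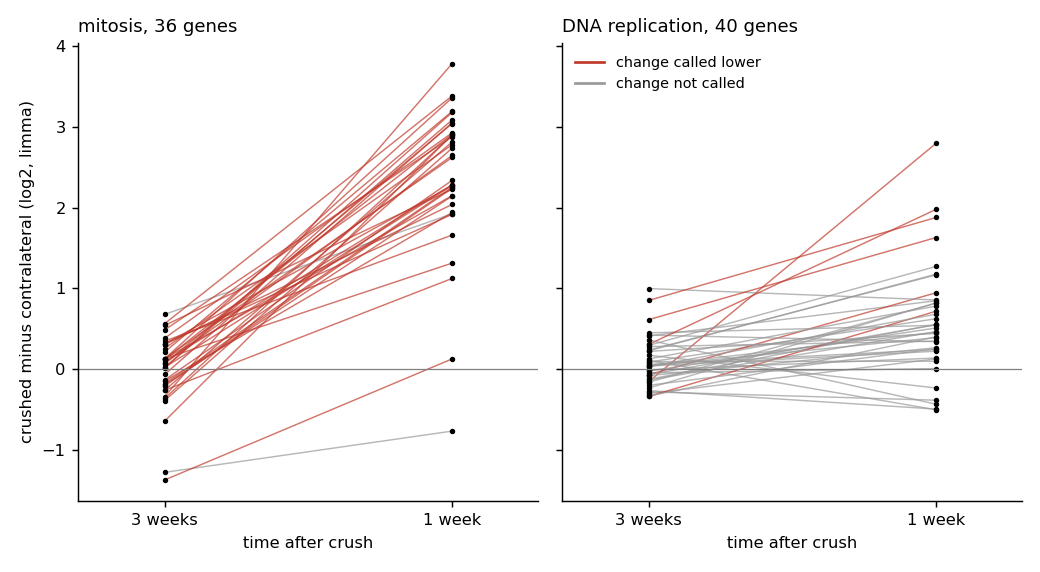
Crush effect (crushed minus contralateral, log2, fitted with limma) at 3 weeks and at 1 week for 36 mitosis genes (left) and 40 DNA replication genes (right), 1 line for each gene. Red lines mark genes whose change was called lower, 34 in the mitosis list and 6 in the DNA replication list.

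Many genes transcribed in G2 and mitosis are known to share a pair of promoter elements, the cell cycle genes homology region with the letters TTTGAA or TTCGAA, which binds the MuvB complexes, and the CCAAT box, which binds NF-Y. The promoters of the genes with the most negative changes in the mitosis list are shown to place these letters, as RefSeq gives them on the GRCm38.p6 build, from 250 bases before to 50 bases after the annotated start, with matches to either motif on either strand in capitals.
Ccnb2 (chr9:70421505-70421804, minus strand): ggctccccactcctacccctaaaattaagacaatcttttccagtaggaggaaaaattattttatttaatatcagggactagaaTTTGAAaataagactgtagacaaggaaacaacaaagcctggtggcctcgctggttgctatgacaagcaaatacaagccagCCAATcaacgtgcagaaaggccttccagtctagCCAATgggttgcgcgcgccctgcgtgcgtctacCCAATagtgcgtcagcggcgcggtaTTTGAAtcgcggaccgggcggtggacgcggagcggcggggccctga
Cenpe (chr3:135212313-135212612, plus strand): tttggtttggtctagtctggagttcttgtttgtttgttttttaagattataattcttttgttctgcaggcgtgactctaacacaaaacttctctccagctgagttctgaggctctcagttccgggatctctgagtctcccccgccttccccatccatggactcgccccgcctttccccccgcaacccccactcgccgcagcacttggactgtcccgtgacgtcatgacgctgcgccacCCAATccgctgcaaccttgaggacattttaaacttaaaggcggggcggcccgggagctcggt
Ube2c (chr2:164769679-164769978, plus strand): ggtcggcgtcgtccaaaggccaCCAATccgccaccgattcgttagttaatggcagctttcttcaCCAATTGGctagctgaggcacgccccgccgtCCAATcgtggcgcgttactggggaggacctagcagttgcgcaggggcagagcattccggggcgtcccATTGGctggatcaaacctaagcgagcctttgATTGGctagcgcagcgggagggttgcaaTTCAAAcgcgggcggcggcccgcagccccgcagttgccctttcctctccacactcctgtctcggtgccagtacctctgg
Bub1 (chr2:127831810-127832109, minus strand): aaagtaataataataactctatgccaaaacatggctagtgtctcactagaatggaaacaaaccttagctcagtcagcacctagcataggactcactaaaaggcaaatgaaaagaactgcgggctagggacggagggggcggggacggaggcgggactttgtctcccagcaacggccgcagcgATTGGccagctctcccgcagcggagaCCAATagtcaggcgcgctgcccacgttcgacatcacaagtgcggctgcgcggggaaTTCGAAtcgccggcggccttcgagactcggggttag
The window of Ccnb2 held 2 matches to TTTGAA or TTCGAA and 3 to CCAAT, that of Ube2c 1 and 6, that of Bub1 1 and 2, and that of Cenpe 0 and 1. The run CCAATTGG in Ube2c counts as a CCAAT match on each strand. Of 31 mitosis genes with a listed promoter of 300 bases, 26 (83.9%) held TTTGAA or TTCGAA, against 5 of 35 DNA replication genes (14.3%) and 5254 of 27025 promoters of all genes (19.4%). CCAAT stood in 23 of the 31 (74.2%), 21 of the 35 and 10248 of the 27025 (37.9%), and both motifs together in 22 of the 31 (71.0%), 4 of the 35 (11.4%) and 2082 of the 27025 (7.7%). A match is a run of letters and not a measured binding site.

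Several genes of leukocytes had a lower crush effect at 3 weeks as well. Of 28 genes of microglia and macrophages, 3 had a lower crush effect at 3 weeks and none a higher one (background 3.1% lower and 1.7% higher), and the median change was -0.41. The 3 were Cd5l, a secreted protein of tissue macrophages, Msr1, a macrophage scavenger receptor, and Fcgr1, the high-affinity receptor for immunoglobulin G. Cd5l had intensities of 99.7, 275, 263, 70.4 and 135 in crushed and 48.0, 20.2, 32.8, 35.1 and 33.0 in contralateral ONHs at 3 weeks, against 1072, 1339, 371, 1153 and 928 in crushed and 24.5, 26.4, 30.4, 15.5 and 18.7 in contralateral ONHs at 1 week. Contralateral ONHs stayed below 50 at both times, and the lowest crushed sample at 1 week lay above the highest at 3 weeks. The crush effect of Cd5l was 2.17 at 3 weeks and 5.22 at 1 week, called at both times, with a change of -3.05 (SE 0.54, limma adjusted p = 0.000981). Msr1 ranged over 269 to 533 in crushed and 207 to 338 in contralateral ONHs at 3 weeks, against 855 to 2170.4 in crushed and 149.6 to 399 in contralateral ONHs at 1 week, and its change was -2.07 (SE 0.41, limma adjusted p = 0.00248). Fcgr1 changed by -1.29 (SE 0.38, limma adjusted p = 0.0269), a call that was lost on omission of any of 4 pairs.

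Of 26 genes of Fc receptor and leukocyte signalling, 7 had a lower crush effect at 3 weeks and none a higher one (background 3.1% lower and 1.7% higher), with a median change of -0.77, and 25 of the 26 estimates were negative. Cybb, the catalytic subunit of the phagocyte NADPH oxidase, had 169 to 340.1 in crushed and 104 to 148 in contralateral ONHs at 3 weeks, against 426 to 1256 in crushed and 59.5 to 194 in contralateral ONHs at 1 week, a change of -2.29 (SE 0.32, limma adjusted p = 0.000131). Vav3, a guanine nucleotide exchange factor of signalling downstream of cell surface receptors, changed by -1.38 (SE 0.24, limma adjusted p = 0.000797), and the leukocyte GTPase Rac2 by -1.30 (SE 0.30, limma adjusted p = 0.00666). Of 29 chemokines and acute cytokines, 2 were lower and none higher (background 3.1% lower and 1.7% higher), with a median change of -0.285. The 2 were Il1rn, the antagonist of the interleukin-1 receptor, with -1.80 (SE 0.40) and the cytokine Lif with -1.85 (SE 0.36). Among 15 complement genes 3 were lower and 1 higher (background 3.1% lower and 1.7% higher). Those lower were Cfp, properdin of the alternative pathway, with -1.75 (SE 0.42), and the anaphylatoxin receptors C5ar1 and C3ar1 with -1.38 (SE 0.40) and -1.12 (SE 0.20). The protease C1ra of the classical pathway was higher, with 1.01 (SE 0.32). The call of C5ar1 was lost on omission of any of 3 pairs and that of C1ra on omission of any of 5.

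Of 10 neutrophil genes, 4 were lower and 1 higher (background 3.1% lower and 1.7% higher), and 5 were not called. Mmp8, the neutrophil collagenase, had 37.1, 54.4, 13.8, 28.5 and 7.36 in crushed and 1.00, 2.63, 3.19, 6.59 and 6.46 in contralateral ONHs at 3 weeks, against 426, 305, 91.6, 339 and 455 in crushed and 1.12, 6.54, 6.80, 4.6 and 3.96 in contralateral ONHs at 1 week. Apart from the crushed ONHs at 1 week, 12 of the other 15 samples lay below the floor of 20 that was set before taking logs, so that the change of -3.26 (SE 0.70, limma adjusted p = 0.00438) depends on the floor. S100a8, a calcium-binding protein of neutrophils and monocytes, had 360.3 to 1251 in crushed and 120.5 to 293 in contralateral ONHs at 3 weeks, against 725 to 5244 in crushed and 70.6 to 144 in contralateral ONHs at 1 week, a change of -2.32 (SE 0.49, limma adjusted p = 0.00373). Its partner S100a9 changed by -2.84 (SE 0.78, limma adjusted p = 0.0186), and without pair 4 at 3 weeks the adjusted p was 0.0535. Between 3 weeks and 1 week S100a9 differed by -1.39 on the crushed and 1.45 on the contralateral side, and the contralateral difference was not called. The crushed sample of pair 2 at 1 week was much lower than its neighbours for S100a9, at 86.9 against 403 or more in the others. Lcn2, lipocalin 2, is carried in this list too and moved the other way, as described with the astrocyte genes.

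Of 18 genes of T and NK cells, 4 were lower and none higher (background 3.1% lower and 1.7% higher), with a median change of -0.36, and 14 were not called. Cd28, a costimulatory receptor of T cells, had 101, 133, 107, 76.5 and 101 in crushed and 76.4, 50.7, 51.1, 53.3 and 46.6 in contralateral ONHs at 3 weeks, against 1506, 722, 373, 1387 and 1327 in crushed and 19.2, 42.8, 13.4, 31.4 and 52.2 in contralateral ONHs at 1 week. Every crushed sample at 1 week stood above every sample of the other 3 groups. The crush effect was 0.90 at 3 weeks and 4.93 at 1 week, and the change of -4.03 (SE 0.52, limma adjusted p = 5.9e-05) was the second most negative of all genes called. Il7r, the receptor for interleukin 7, had 464 to 950.4 in crushed and 39.98 to 141 in contralateral ONHs at 3 weeks, against 763 to 4894 in crushed and 73.2 to 117 in contralateral ONHs at 1 week, a change of -1.59 (SE 0.45, limma adjusted p = 0.0211), and was still called up at 3 weeks with a crush effect of 3.02. Its call was lost without pair 1 at 3 weeks or pair 4 at 1 week. The T cell kinase Zap70 and the granzyme Gzma changed by -1.51 (SE 0.49) and -2.26 (SE 0.63), with calls lost on omission of any of 5 pairs for Zap70 and any of 3 for Gzma. The contralateral side had the larger part of both changes, but for neither gene was the difference on that side called. Between 3 weeks and 1 week Zap70 differed by -0.67 on the crushed and 0.85 on the contralateral side. Gzma differed by -0.80 on the crushed and 1.46 on the contralateral side. Among 7 genes of B cells, Cd79b of the antigen receptor was lower with -1.26 (SE 0.37), a call lost on omission of any of 4 pairs. Ciita, the transactivator of MHC class II genes, was the 1 called of 7 in that list, with -1.23 (SE 0.30, limma adjusted p = 0.00907). The genes that defined microglia in the lists were not called. For 9 genes of microglial identity the median change was -0.053, and the most negative, the purinergic receptor P2ry12, had a crush effect of -0.97 at 3 weeks and -0.41 at 1 week, a change of -0.56 (SE 0.21, limma adjusted p = 0.0742).

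Chil3, a chitinase-like lectin of alternatively activated macrophages, had 120.3, 74.1, 118, 81.2 and 163 in crushed and 94.7, 117, 153, 149 and 70.8 in contralateral ONHs at 3 weeks, against 1322, 103, 203, 1955 and 1030.4 in crushed and 22.1, 36.0, 37.6, 63.6 and 53.7 in contralateral ONHs at 1 week. The crushed samples at 1 week were very uneven, with pairs 2 and 3 far below the other 3 pairs, and at 3 weeks crushed and contralateral samples overlapped. The crush effect was -0.071 at 3 weeks and 3.81 at 1 week, a change of -3.88 (SE 0.69, limma adjusted p = 0.000993). Between 3 weeks and 1 week Chil3 differed by -2.39 on the crushed and 1.49 on the contralateral side, of which the contralateral difference did not pass (limma adjusted p = 0.0606). Apoc2, an apolipoprotein that activates lipoprotein lipase, was the 1 called of 25 genes of lipid-laden phagocytes (background 3.1% lower and 1.7% higher). It had 1211 to 2067 in crushed and 189 to 263 in contralateral ONHs at 3 weeks, against 1923 to 5350.3 in crushed and 151 to 228 in contralateral ONHs at 1 week, a change of -1.68 (SE 0.42, limma adjusted p = 0.0102), and stayed called up at 3 weeks with 2.73. Of 35 lysosomal genes 1 was lower and 1 higher, close to the share over all genes (background 3.1% lower and 1.7% higher). These were the alpha-galactosidase Gla with -1.09 (SE 0.28) and the acid alpha-glucosidase Gaa with 1.08 (SE 0.24). Another probe set of Gla had the opposite sign, with 0.60 (SE 0.39), and was not called, and the median over its probe sets was -0.24. The call of Gla was lost without pair 4 at 1 week. That of Gaa was lost without pair 4 at 3 weeks or pair 1 at 1 week. Of 34 genes of glutathione and drug metabolism 1 was lower and 1 higher, again close to that background. Hmox1, heme oxygenase 1, which breaks down heme, changed by -1.13 (SE 0.28, limma adjusted p = 0.00985), and by -0.89 without pair 3 at 1 week, under the 2-fold limit. The glutathione transferase Gstm7 changed by 1.18 (SE 0.25, limma adjusted p = 0.00407), and by 0.95 without pair 2 at 3 weeks. Myc, the growth-promoting transcription factor, was the 1 called of 32 immediate early and stress genes (background 3.1% lower). It was lower with -1.32 (SE 0.35, limma adjusted p = 0.0163).

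**Figure D3:**
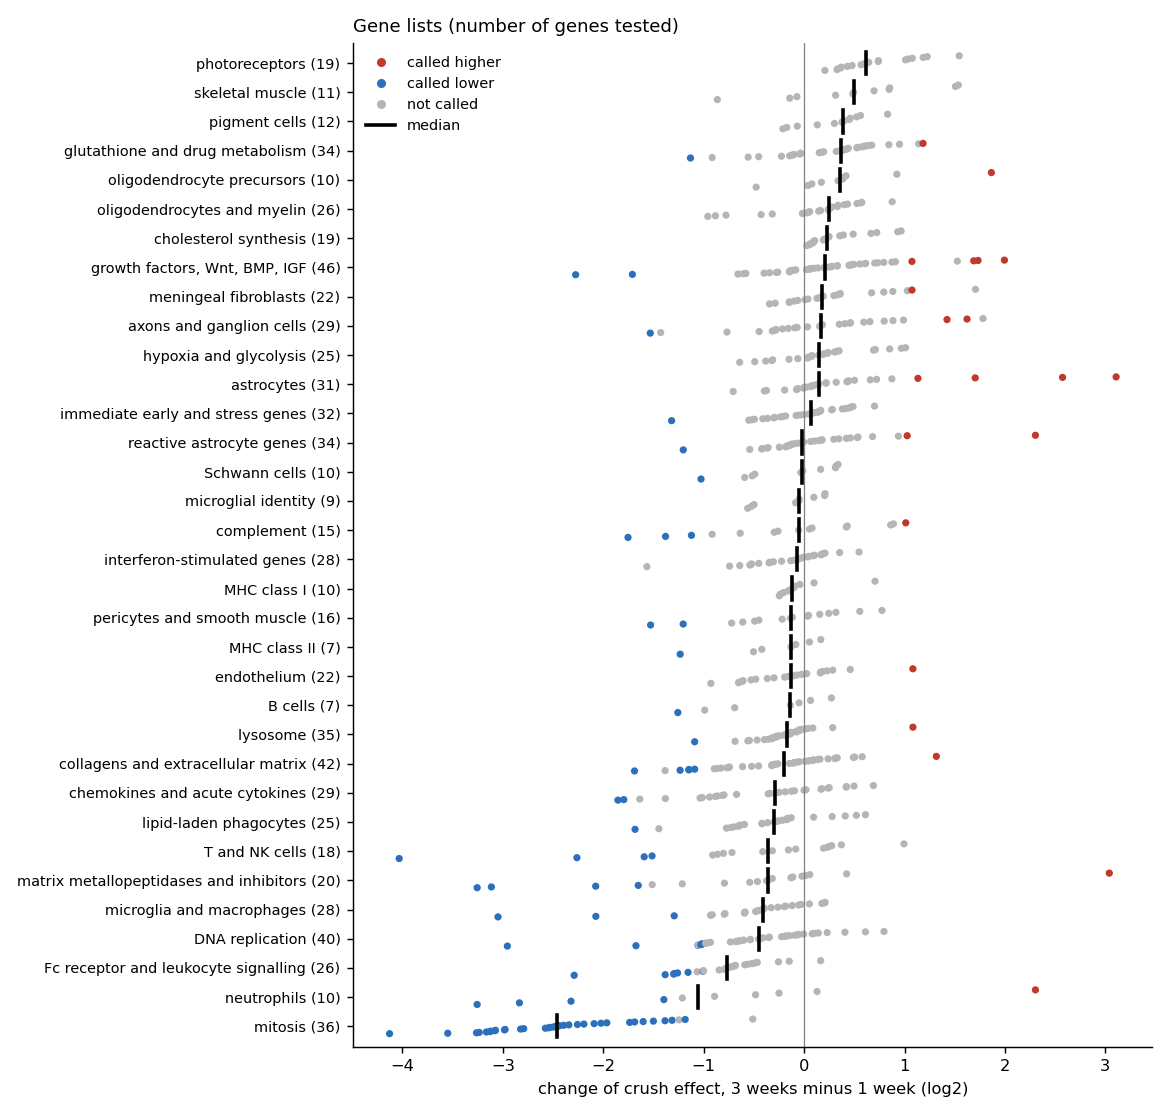
Change of crush effect (3 weeks minus 1 week, log2) of every gene tested in 34 lists, with the number of genes tested in brackets and a black bar for the median of a list. Red dots were called higher and blue dots lower. The medians run from -2.46 for mitosis to 0.62 for photoreceptors, a list in which no gene was called.

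Of 20 matrix metallopeptidases and inhibitors, 4 were lower and 1 higher (background 3.1% lower and 1.7% higher). Mmp3, stromelysin 1, was the one that was higher. It had 1131, 1393, 854, 1369 and 2067 in crushed and 104, 253, 39.7, 65.1 and 85.8 in contralateral ONHs at 3 weeks, against 168, 40.4, 515, 515 and 392.1 in crushed and 424, 62.9, 109, 84.5 and 166 in contralateral ONHs at 1 week. At 3 weeks every crushed sample stood above every contralateral sample, and at 1 week the sides overlapped. Mmp3 thus had a crush effect of 3.86 at 3 weeks and 0.82 at 1 week, a change of 3.04 (SE 0.71, limma adjusted p = 0.00751). Mmp10, stromelysin 2, moved the other way. It had 54.9 to 135 in crushed and 66.9 to 111 in contralateral ONHs at 3 weeks, against 87.3 to 1873 in crushed and 40.1 to 77.2 in contralateral ONHs at 1 week, a change of -3.11 (SE 0.65, limma adjusted p = 0.00349), although the crushed sample of pair 2 at 1 week, at 87.3, lay within the range of the crushed samples at 3 weeks. Adam8, a membrane protease of leukocytes, changed by -2.08 (SE 0.41, limma adjusted p = 0.00235) and stayed called up at 3 weeks with 2.41.

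Of 42 genes of collagens and extracellular matrix, 5 were lower and 1 higher (background 3.1% lower and 1.7% higher), with a median change of -0.20. Vcan, the proteoglycan versican, had 1876 to 2949 in crushed and 1925 to 2751 in contralateral ONHs at 3 weeks, against 4471 to 5863 in crushed and 1971 to 2819.7 in contralateral ONHs at 1 week, a change of -1.15 (SE 0.14, limma adjusted p = 2.51e-05). Lox, the oxidase that crosslinks collagen and elastin, changed by -1.24 (SE 0.27, limma adjusted p = 0.00416) and had a crush effect of 0.97 at 3 weeks and 2.21 at 1 week. Thrombospondin 1, Thbs1, changed by -1.69 (SE 0.54), a call that was lost on omission of any of 6 pairs. Lamb2, a laminin chain of basement membranes, was the one that was higher, with a crush effect of 0.47 at 3 weeks and -0.85 at 1 week and a change of 1.32 (SE 0.22, limma adjusted p = 0.000614). Its difference between the times was 0.56 on the crushed and -0.76 on the contralateral side. C1qtnf3, a secreted protein of the C1q and TNF family, had 33.7, 50.7, 45.3, 20.6 and 32.6 in crushed and 54.7, 62.9, 62.8, 50.4 and 43.4 in contralateral ONHs at 3 weeks, against 62.9, 492, 420.3, 295 and 167 in crushed and 32.6, 56.2, 30.0, 29.2 and 61.2 in contralateral ONHs at 1 week. The crushed sample of pair 1 at 1 week lay close to the contralateral samples, and the other 4 stood above all other groups. The change was -3.17 (SE 0.45, limma adjusted p = 0.000131). Of 16 genes of pericytes and smooth muscle, 2 were lower and none higher (background 3.1% lower and 1.7% higher). The median change was -0.13, and 7 of the 16 estimates were positive. The 2 were Actg2, smooth muscle actin, with -1.53 (SE 0.50) and the pericyte gene Higd1b with -1.20 (SE 0.39). Their calls were lost on omission of any of 7 and any of 8 pairs. Of 22 genes of endothelium, 1 was higher and none lower, close to the share over all genes (background 1.7% higher and 3.1% lower). The median change was -0.13, and 14 of the 22 estimates were negative. The 1 called was Abcb1a, the efflux pump of the blood-brain barrier. It had 3212 to 4439 in crushed and 1611 to 2354 in contralateral ONHs at 3 weeks, against 2392 to 2779 in crushed and 2284 to 3881 in contralateral ONHs at 1 week, a change of 1.08 (SE 0.17, limma adjusted p = 0.000391) that was below 2-fold without pair 3 of either time.

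Among the genes whose crush effect was higher at 3 weeks, several are transcripts of astrocytes that were far below the contralateral level at 1 week. Of 31 astrocyte genes, 4 were higher and none lower (background 1.7% higher), with a median change of 0.14. Agt, angiotensinogen, which astrocytes make in the brain, had 922, 1979, 702, 1241 and 829 in crushed and 2067, 1428, 1276, 1877 and 2104 in contralateral ONHs at 3 weeks, against 134, 582, 180.2, 128 and 108 in crushed and 3134, 3320.4, 3246, 1822 and 1683 in contralateral ONHs at 1 week. All 5 crushed samples at 1 week lay below all 15 others. This gave crush effects of -0.70 at 3 weeks and -3.81 at 1 week, a change of 3.11 (SE 0.39, limma adjusted p = 4.43e-05). Ntsr2, a neurotensin receptor of astrocytes, had 839, 1401, 781, 1039 and 719 in crushed and 1632, 1338, 1378, 2075 and 1821 in contralateral ONHs at 3 weeks, against 183, 297, 169, 133 and 155 in crushed and 2374, 2270.1, 2036, 1468 and 1468 in contralateral ONHs at 1 week. Here too the crushed samples at 1 week stood apart below the rest, and the crush effect was -0.81 at 3 weeks and -3.38 at 1 week, a change of 2.57 (SE 0.32, limma adjusted p = 3.75e-05). Acsbg1, an acyl-CoA synthetase, had 338 to 1076 in crushed and 791 to 1318 in contralateral ONHs at 3 weeks, against 135 to 352 in crushed and 912 to 1591 in contralateral ONHs at 1 week, a change of 1.70 (SE 0.33, limma adjusted p = 0.00233). Ppp1r3c, which targets protein phosphatase 1 to glycogen, had a crush effect of 0.48 at 3 weeks and -0.66 at 1 week, neither of them called, and a change of 1.13 (SE 0.15, limma adjusted p = 6.76e-05). The water channel Aqp4 had a crush effect of -0.041 at 3 weeks and -0.48 at 1 week, and its change of 0.44 (SE 0.18, limma adjusted p = 0.0999) was not called.

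Igfbpl1, a secreted protein with an IGF-binding domain, shared this course. It had 1129, 2731, 903, 1136 and 1263 in crushed and 2500.2, 1931, 1837, 2008 and 2232 in contralateral ONHs at 3 weeks, against 165, 336, 142, 92.3 and 189 in crushed and 2449.6, 2572, 2319, 2047 and 2083 in contralateral ONHs at 1 week. The crushed samples at 1 week lay below all others, and at 3 weeks pair 2 differed from the other pairs, with its crushed sample above its contralateral one. Its crush effect was -0.66 at 3 weeks and -3.76 at 1 week, a change of 3.09 (SE 0.49, limma adjusted p = 0.000387). Agt and Ntsr2 were likewise highest in pair 2 among the crushed samples at 3 weeks.

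Others rose above the contralateral level at 3 weeks. Mal2, a membrane protein of vesicle traffic in epithelia, had the most positive change of all genes. Its intensities were 459.7, 317, 628, 264 and 440.2 in crushed and 21.6, 53.6, 112, 11.6 and 48.5 in contralateral ONHs at 3 weeks, against 44.6, 29.5, 91.0, 19.0 and 106 in crushed and 37.9, 71.3, 57.7, 173 and 76.3 in contralateral ONHs at 1 week. The crushed samples at 3 weeks stood above all 15 others. Mal2 had a crush effect of 3.27 at 3 weeks and -0.60 at 1 week, a change of 3.88 (SE 0.66, limma adjusted p = 0.000704). Gabrg3, a subunit of the GABA-A receptor, had 423 to 1099 in crushed and 78.5 to 222 in contralateral ONHs at 3 weeks, against 44.2 to 127 in crushed and 59.7 to 125 in contralateral ONHs at 1 week, a change of 2.55 (SE 0.42, limma adjusted p = 0.000523). Tfcp2l1, a transcription factor of epithelia, changed by 2.36 (SE 0.40), and Dmgdh, a mitochondrial enzyme of choline breakdown, by 2.35 (SE 0.41). Rtn4r, the Nogo receptor that binds inhibitors of axon growth, had 120.0 to 338 in crushed and 94.9 to 169 in contralateral ONHs at 3 weeks, against 33.3 to 55.0 in crushed and 69.0 to 150.3 in contralateral ONHs at 1 week. Its crush effect was 0.85 at 3 weeks and -1.48 at 1 week, called down at 1 week only, with a change of 2.34 (SE 0.30, limma adjusted p = 6.05e-05). Of 10 genes of oligodendrocyte precursors, 1 was called higher in the change (background 1.7% higher). The median crush effect of that list was -0.78 at 3 weeks and -0.99 at 1 week. In it 3 genes were called down at 3 weeks and 5 at 1 week (background 1.77% and 3.92%). The 1 called higher was Matn4, a matrilin of the extracellular matrix. It had 117 to 226 in crushed and 34.3 to 51.0 in contralateral ONHs at 3 weeks. At 1 week it had 40.9 to 80.1 in crushed and 43.3 to 91.4 in contralateral ONHs. Its change was 1.87 (SE 0.35, limma adjusted p = 0.00158).

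Lcn2, lipocalin 2, a secreted protein of reactive astrocytes and of neutrophils, was up at both times. It had 5439, 8097, 5754, 3134 and 5665 in crushed and 280.4, 378, 477, 299.9 and 429.8 in contralateral ONHs at 3 weeks, against 1653, 1086, 641, 2268 and 907 in crushed and 285, 384, 1186, 284 and 273 in contralateral ONHs at 1 week. The lowest crushed sample at 3 weeks exceeded the highest at 1 week, and contralateral sample 3 at 1 week lay above the crushed sample of its own pair. For Lcn2 the crush effect was 3.88 at 3 weeks and 1.58 at 1 week, a change of 2.30 (SE 0.54, limma adjusted p = 0.00712). In the same samples the neutrophil genes Mmp8, S100a8 and S100a9 had lower crush effects at 3 weeks. The 14 neutrophil genes on the array summed to 5160 to 10819 in crushed ONHs at 3 weeks. At 1 week the crushed sums were 2965 to 14428. These sums contain Lcn2 itself, so they do not measure neutrophils apart from Lcn2. The part of neutrophils in the level of Lcn2 was not tested. Of 34 genes of reactive astrocytes, 2 were higher and 1 lower (background 3.1% lower and 1.7% higher). Beside Lcn2 these were Fkbp5, a cochaperone of the glucocorticoid receptor, with 1.03 (SE 0.28), and B3gnt5, which makes the core of lacto-series glycolipids, with -1.20 (SE 0.23, limma adjusted p = 0.00189). The call of Fkbp5 was lost on omission of any of 3 pairs. It was also lost on the median over its probe sets and with the photoreceptor level as a covariate.

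Of 46 genes of secreted growth regulators, 40 were not called, 4 were higher and 2 lower (background 1.7% higher and 3.1% lower), with a median change of 0.21. Wnt2 had 129, 80.7, 131, 132 and 116 in crushed and 36.8, 41.4, 21.7, 20.8 and 25.7 in contralateral ONHs at 3 weeks, against 491, 565, 302, 825 and 461 in crushed and 17.9, 16.8, 43.0, 17.7 and 29.3 in contralateral ONHs at 1 week. It was above the contralateral level in every pair, called up at both times, and the crush effect was 2.04 at 3 weeks and 4.32 at 1 week, a change of -2.28 (SE 0.48, limma adjusted p = 0.0038). The change of Wnt6 had the opposite sign. It had 1204 to 2442 in crushed and 792 to 1509.8 in contralateral ONHs at 3 weeks, against 458 to 779 in crushed and 1081 to 1544 in contralateral ONHs at 1 week, with a crush effect of 0.54 at 3 weeks and -1.19 at 1 week and a change of 1.73 (SE 0.31, limma adjusted p = 0.0012). Wnt10a also changed towards higher values, with 1.995 (SE 0.58), a call that was lost on omission of any of 3 pairs. Wif1, a secreted inhibitor that binds Wnt proteins, was down at 3 weeks only. It had 152, 202, 155, 762 and 488 in crushed and 1126, 1245, 1148, 1027 and 1011 in contralateral ONHs at 3 weeks, against 918, 1464, 1146, 876 and 611 in crushed and 1488, 1072, 1391, 701 and 1329 in contralateral ONHs at 1 week. Pairs 1 to 3 at 3 weeks fell far below their contralateral samples, and pairs 4 and 5 less so. The change was -1.71 (SE 0.43, limma adjusted p = 0.0115). Of 22 meningeal genes, 1 was higher and none lower, close to the share over all genes (background 1.7% higher and 3.1% lower). This was the adhesion molecule Cdh1, E-cadherin, with a crush effect of 1.36 at 3 weeks and 0.29 at 1 week. Its change was 1.07 (SE 0.31), a call that was lost on omission of any of 4 pairs.

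For 3 genes the crush effect was called in opposite directions at the 2 times. Dsg2, a desmosomal cadherin, had 541, 220.0, 227, 379.6 and 347 in crushed and 120.4, 148, 115, 175 and 218 in contralateral ONHs at 3 weeks, against 97.3, 46.7, 54.2, 62.4 and 63.8 in crushed and 117, 117, 159.9, 153 and 132 in contralateral ONHs at 1 week. Each of the 5 pairs was up at 3 weeks and each was down at 1 week, with a crush effect of 1.10 at 3 weeks and -1.10 at 1 week and a change of 2.20 (SE 0.36, limma adjusted p = 0.000542). Aldh3a1, an aldehyde dehydrogenase, likewise moved in 5 of 5 pairs at each time. It had 307 to 867 in crushed and 96.1 to 384 in contralateral ONHs at 3 weeks, against 121 to 222 in crushed and 198 to 603 in contralateral ONHs at 1 week, a crush effect of 1.26 at 3 weeks and -1.18 at 1 week and a change of 2.44 (SE 0.55, limma adjusted p = 0.00602). Slc38a4, an amino acid transporter, was the gene that turned the other way. It had 17.5, 20.4, 188, 53.3 and 258 in crushed and 242, 218, 131, 144 and 255 in contralateral ONHs at 3 weeks, against 251, 436, 736, 705 and 186 in crushed and 88.2, 146, 198, 98.9 and 235 in contralateral ONHs at 1 week. At 3 weeks pairs 1, 2 and 4 were far down while pair 3 was slightly up and pair 5 close to even, and at 1 week pair 5 was slightly down. Over 5 pairs its crush effect was -1.58 at 3 weeks and 1.496 at 1 week, a change of -3.08 (SE 0.69, limma adjusted p = 0.00542).

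No myelin gene was called in the change. Of 26 genes of oligodendrocytes and myelin, 9 were called down at 3 weeks and 13 at 1 week (background 1.77% and 3.92%), and for the change 3 were higher and 4 lower at p under 0.05 before adjustment. The median crush effect was -0.85 at 3 weeks and -1.02 at 1 week, and the median change was 0.25, with 20 of 26 estimates positive. The gap junction protein Gjc3, whose estimate was the largest in size and ran against that median, had a crush effect of -2.01 at 3 weeks and -1.05 at 1 week and a change of -0.96 (SE 0.44, limma adjusted p = 0.15). The receptor Erbb3, which Schwann cells and oligodendrocytes carry for neuregulin, was the 1 called of 10 Schwann cell genes (background 3.1% lower). It was lower with -1.03 (SE 0.32), and the call was lost on omission of any of 5 pairs.

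Axonal transcripts showed where the contralateral side enters the change. Of 29 genes of axons and ganglion cells, 11 were called down at 3 weeks and 13 at 1 week (background 1.77% and 3.92%). In the change 2 were higher and 1 lower (background 1.7% higher and 3.1% lower), with a median of 0.17. Between 3 weeks and 1 week contralateral ONHs were lower for 3 of the 29 (background 0.372%). Crushed ONHs were also lower for 3 (background 3.8%). Sptbn4, the spectrin of nodes and axon initial segments, had 11.7, 5.16, 18.5, 6.22 and 13.6 in crushed and 721, 543, 578, 549 and 422 in contralateral ONHs at 3 weeks, against 6.08, 9.86, 10.3, 8.40 and 11.2 in crushed and 1918, 2182, 2496, 1118 and 623 in contralateral ONHs at 1 week. All 10 crushed samples lay below the floor of 20, so no difference between the times could be measured on that side. The contralateral samples at 3 weeks were lower than 4 of the 5 at 1 week, and sample 5 at 1 week lay within their range. The crush effect was -4.79 at 3 weeks and -6.22 at 1 week, and the change of 1.42 (SE 0.34, limma adjusted p = 0.00809) equalled the contralateral difference of -1.42 with its sign turned. Rph3a, rabphilin of synaptic vesicles, had 16.8, 4.66, 25.5, 21.6 and 24.9 in crushed and 98.6, 86.4, 98.2, 83.4 and 68.8 in contralateral ONHs at 3 weeks, against 5.94, 18.6, 8.51, 11.8 and 25.9 in crushed and 291, 341, 291, 301 and 115 in contralateral ONHs at 1 week. Its change was 1.62 (SE 0.35, limma adjusted p = 0.00398), with a difference between the times of 0.081 on the crushed and -1.54 on the contralateral side. Of its 10 crushed samples 6 lay below the floor of 20, so that the crushed difference and the size of the change depend on the floor. A positive change here therefore stood beside crushed levels that were low at both times. Gap43, a protein of growing axons, was the one that was lower. It had 340.2, 324, 352, 250.2 and 222 in crushed and 502, 768, 644, 671 and 685 in contralateral ONHs at 3 weeks, against 815, 726, 971, 514 and 822 in crushed and 546, 683, 422, 588 and 685 in contralateral ONHs at 1 week. The crushed samples at 3 weeks lay below all 15 others, and the crush effect was -1.14 at 3 weeks and 0.39 at 1 week, a change of -1.53 (SE 0.33, limma adjusted p = 0.00443).

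Over all genes the contralateral side had the larger part of the change for 52 of the 183 genes called higher (28.4%) and 15 of the 334 called lower (4.5%). Between 3 weeks and 1 week contralateral ONHs were called higher for 8 genes (0.0743%) and lower for 40 (0.372%), and crushed ONHs higher for 131 (1.22%) and lower for 409 (3.8%). Among the genes called in the change, 14 were also called on the contralateral side, 12 of them among the 183 and 2 among the 334. Beside Rph3a and Sptbn4, these included the kinase Wnk2, which regulates chloride cotransporters, with 0.42 on the crushed and -1.49 on the contralateral side, the methyltransferase Inmt with 0.22 on the crushed and -1.48 on the contralateral side, Lingo1, a coreceptor of the Nogo receptor, with -0.13 on the crushed and -1.23 on the contralateral side, and the plakin Ppl with 0.13 on the crushed and -1.22 on the contralateral side. Wnk2 had 85.7 to 195 in crushed and 183 to 402 in contralateral ONHs at 3 weeks, against 62.0 to 130.5 in crushed and 330.1 to 1129 in contralateral ONHs at 1 week, and contralateral sample 5 was the lowest of its group at 1 week for Wnk2, as it was for Rph3a and Sptbn4. Among the changes of crush effect, the call of Lingo1 was lost on omission of any of 6 pairs and that of Inmt on omission of pair 4 at 3 weeks or pair 2 at 1 week. The contralateral counts rested on single samples. In probe sets, 16 were higher (0.0828%) and 63 lower (0.326%) on that side. Without pair 5 at 1 week they were 57 and 165, without pair 3 at 1 week 31 were lower, and without pair 2 at 3 weeks 10 were higher.

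**Figure D4:**
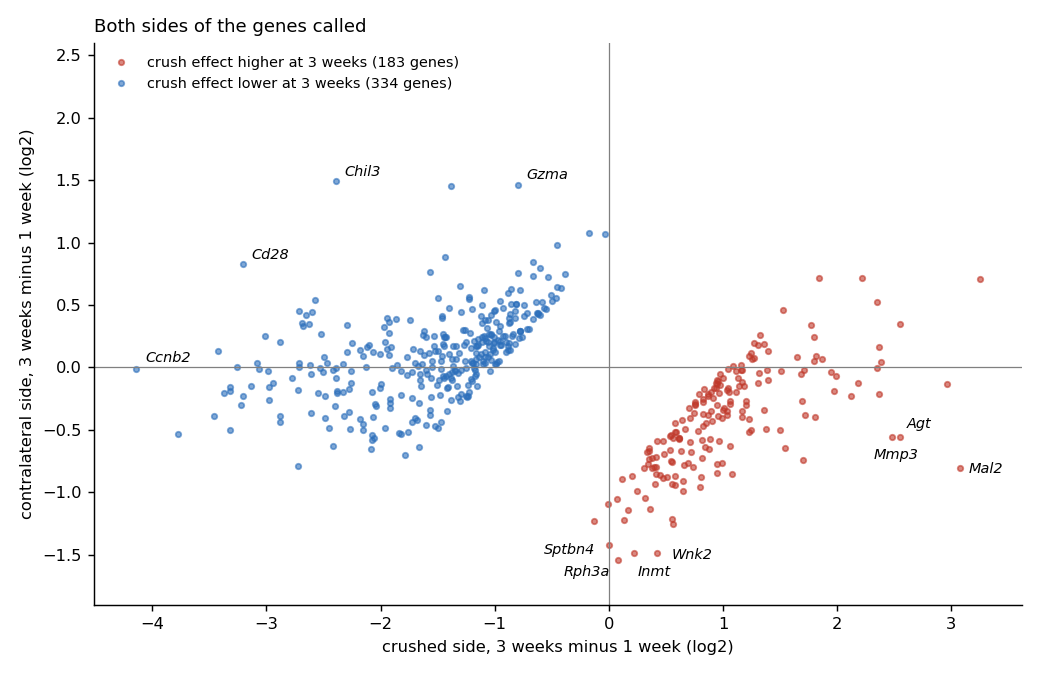
Difference between 3 weeks and 1 week on the crushed side (horizontal axis, log2) and on the contralateral side (vertical axis, log2) for the 183 genes whose crush effect was higher at 3 weeks (red) and the 334 whose crush effect was lower (blue). Ccnb2 lies near 0 on the vertical axis, and Sptbn4, Rph3a, Wnk2 and Inmt lie near 0 on the horizontal axis and far below 0 on the vertical one.

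At both times 206 genes were called up and 130 were called down. Some of them were also called in the change. Of those up at both times, 41 were called lower and 3 higher in the change. Of those down at both times, 5 were called higher. The 6 named here had the smallest change among those with a mean crush effect of at least 2 in size on the log2 scale. Fcrls, a microglial Fc receptor-like protein, had 2771, 3559, 3126, 2411 and 2686 in crushed and 726, 584, 335, 477 and 644 in contralateral ONHs at 3 weeks, against 4326, 5769.9, 3373, 4884 and 4155 in crushed and 831, 802, 867, 644 and 748 in contralateral ONHs at 1 week, with crush effects of 2.43 at 3 weeks and 2.52 at 1 week and a change of -0.085 (SE 0.33, limma adjusted p = 0.893). The interval of 95% for that change ran from -0.77 to 0.60. Crispld1, a secreted cysteine-rich protein, had crush effects of 2.53 at 3 weeks and 2.58 at 1 week. Rimklb, an enzyme that makes N-acetylaspartylglutamate, stayed down with -2.38 at 3 weeks and -2.28 at 1 week, and its change of -0.10 (SE 0.34) had an interval of -0.80 to 0.60. Sh3gl3, endophilin A3, had -2.01 at 3 weeks and -2.05 at 1 week, Vamp1, a synaptic vesicle protein, -2.30 at 3 weeks and -2.38 at 1 week, and the ring finger protein Rnf112 -2.30 at 3 weeks and -2.40 at 1 week. The SE of these 6 changes ran from 0.33 to 0.55.

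The other times of the study place these changes in their course. The crush effect of Ccnb2 was, in order of time from 1 day over 3 days and 1 week to 3 weeks, -0.33 ± 0.61, 4.91 ± 0.50, 3.79 ± 0.53 and -0.34 ± 0.25 (mean ± SD, n = 5 pairs), and 0.20 ± 0.26 at 3 months in a separate batch. That of Cd28 was -0.099 ± 0.56, 2.64 ± 1.37, 4.93 ± 0.91 and 0.90 ± 0.42 at these times and 1.28 ± 0.81 at 3 months, so that it was highest at 1 week, later than Ccnb2. Chil3 had 6.58 ± 1.27, 5.15 ± 0.49, 3.81 ± 1.80 and -0.071 ± 0.85, highest at 1 day, and 1.07 ± 0.76 at 3 months. Ntsr2 stood at -4.30 ± 0.47, -4.77 ± 0.77, -3.38 ± 0.30 and -0.81 ± 0.53 and at -0.33 ± 0.33 at 3 months, and Agt at -3.08 ± 0.80, -3.10 ± 0.34, -3.81 ± 0.77 and -0.70 ± 0.71 and -0.36 ± 0.59. Lcn2 had 3.61 ± 0.81, 3.69 ± 0.69, 1.58 ± 1.503 and 3.88 ± 0.45, with 3.51 ± 1.25 at 3 months, which makes 1 week its lowest time. Mmp3 took a similar course from a higher start, with 5.67 ± 1.46, 1.81 ± 0.55, 0.82 ± 1.74 and 3.86 ± 0.90 and 2.62 ± 1.77. Mal2 was above the contralateral level at 3 weeks and 3 months, with -0.084 ± 0.92, -0.93 ± 1.04, -0.60 ± 1.60 and 3.27 ± 0.81 and 1.55 ± 0.88. Values at 3 months were compared with no other time by a test.

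**Figure D5:**
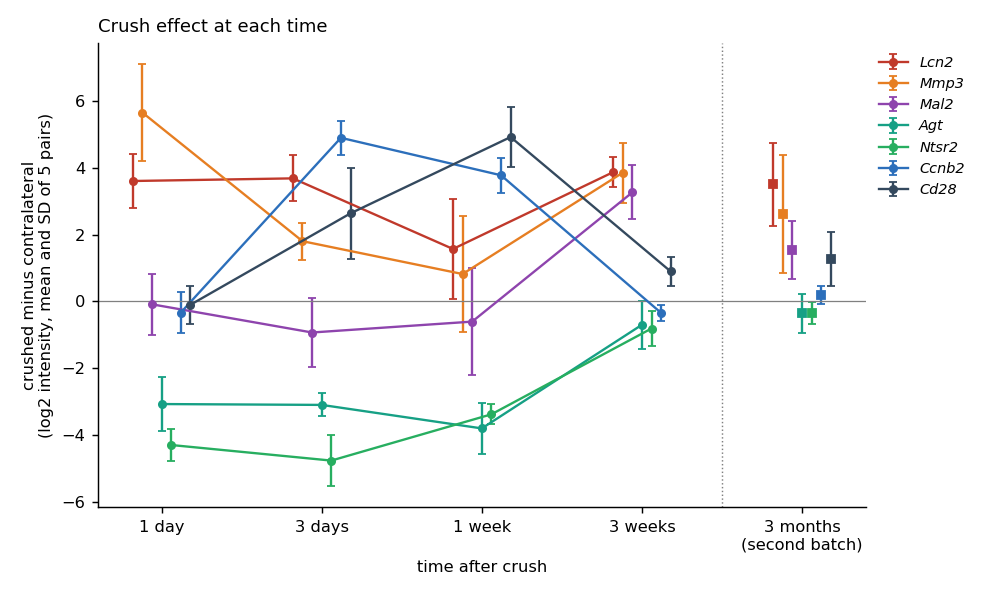
Crushed minus contralateral log2 intensity (mean and SD of 5 pairs) at the 5 times after crush for 7 genes, with lines within the first batch and squares for the second. Lcn2 and Mmp3 have their lowest mean at 1 week, and Ccnb2 has its highest at 3 days.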

How the data were processed

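Transcripts were measured on the Affymetrix array Mouse Genome 430A 2.0. The deposited values are linear intensities that the authors computed with DChip after normalization to an invariant set, from a model of the difference between perfect match and mismatch probes, as 1 intensity for each probe set and array. Of 22690 probe sets, 64 controls were left out, and of the other 22626, 20380 carry 1 gene symbol, 691 several and 1555 none. Intensities were set to at least 20, which touched 9.72% of the values of the 20 arrays, and logged to base 2. The number of arrays limits the precision, and the floor can make the changes of dim genes smaller or larger.

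The 40 crushed and contralateral arrays at 1 day, 3 days, 1 week and 3 weeks entered one fit with limma 3.58.1 (lmFit, and eBayes with an intensity trend) in R 4.3.3 (data read with the package data.table, version 1.17.8), in which each pair had its own level (a block) and each of the 4 times its own crush term. The contrast was the crush term at 3 weeks minus that at 1 week. Each side was compared between the times in a model of group means on the same arrays, without pairs, since the mice differ. Probe sets that reached 50 on at least 5 of the 40 arrays were tested, and one was called at a two-sided Benjamini-Hochberg adjusted p under 0.05, over all 19313 tested, with at least a 2-fold difference. A gene was represented by the single-symbol probe set with the highest mean intensity. For 31 named genes 49 other probe sets were tested, and of those that belong to called genes 23 were called the same way and 8 were not called. Those not called belonged to Cdt1 (-1.25), Cep55 (-0.89), Dsg2 (0.53), Fkbp5 (0.69), Gla (0.60), Il1rn (-0.88), Msr1 (-0.75) and Wnk2 (1.12). No gene had probe sets called in opposite directions.

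The pairs come from the study's design, in which both eyes of the same 2 mice gave the 2 samples of a number. The deviations of the 2 samples from their group means correlated at -0.015, -0.089, 0.558, 0.218 and 0.2 for pairs 1 to 5 at 3 weeks and at -0.295, 0.38, 0.149, -0.324 and -0.122 at 1 week. Named were the 12 most positive and 12 most negative changes called, up to 4 called genes of each list (or its largest change where none was called), genes called in opposite directions at the 2 times, the 6 steadiest of the strong ones, up to 6 genes also called on the contralateral side, and markers of the tissue. Mki67, Bub1b, Anln and Spag5 were added after their values were seen. The members and the lists were chosen with earlier results of these data known. Motifs and figures were made in Python 3.11.15 with pandas 2.3.3 and matplotlib 3.10.9, from promoters of RefSeq. The fit was tested on simulated data. Alternatives were the pairing, the arrays in the fit, normalization, floor, filter, eBayes settings, fold minimum, probe set rule, the photoreceptor level as a covariate and the omission of each pair. One marker named for the tissue is not reported here.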

Additional observations from a re-analysis of the deposited data

Results flagged for a closer look

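The difference between the times was itself the test, with 271 probe sets whose crush effect was higher at 3 weeks and 598 whose crush effect was lower. It turned direction for Aldh3a1 with a change of 2.44, Dsg2 with 2.20 and Slc38a4 with -3.08.

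In 13 of 202 sets of 5 pairs (101 named genes at each time) 1 pair lay far from the other 4 by Dixon's criterion, and chance alone gives about 1 in 20. Those at 3 weeks were Apoc2 in pair 2 with 3.45 against a median of 2.53 in the others, Gla in pair 2 with 1.34 against a median of 0.55 in the others, Igfbpl1 in pair 2 with 0.50 against a median of -0.92 in the others, Vav3 in pair 2 with -1.22 against a median of -0.26 in the others and Vcan in pair 1 with -0.52 against a median of 0.099 in the others. Those at 1 week were B3gnt5 in pair 1 with 2.68 against a median of 1.77 in the others, Cd5l in pair 3 with 3.61 against a median of 5.60 in the others, Cep55 in pair 1 with 4.17 against a median of 2.80 in the others, Dmgdh in pair 4 with 0.93 against a median of -0.15 in the others, Mbp in pair 4 with -0.63 against a median of -0.39 in the others, Mmp8 in pair 3 with 2.20 against a median of 4.25 in the others, Prc1 in pair 1 with 3.53 against a median of 2.53 in the others and Rph3a in pair 5 with -2.15 against a median of -3.89 in the others. Of the 5 at 3 weeks, 4 were in pair 2.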

How the results depend on the processing

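The counts at each setting were within 1.5 times the reported ones, except as follows. With no fold minimum the change was higher for 1150 and lower for 1787 probe sets, the crush effect was up for 2008 and down for 2332 at 3 weeks and up for 4447 and down for 3714 at 1 week, the crushed side was higher for 1885 and lower for 4308, and the contralateral side higher for 448 and lower for 1738. The 16 probe sets higher on the contralateral side became 25 when arrays were shifted to a common median, 8 with a floor of 50 and 10 when at least 10 arrays had to reach 100. Without the replicate block of pairs 279 were higher and 618 lower, with 848 of the 869 called in both fits. Of the 81 named genes called, 77 kept their call without the block, and the 4 that lost it were Thbs1, Higd1b, Gzma and S100a9. None of these genes changed sign under any setting run. With 1 pair left out the change was higher for 206 to 405 and lower for 488 to 665 probe sets, the contralateral side higher for 10 to 57 and lower for 31 to 165. The crush effect at 3 weeks was up for 424 to 500 and down for 295 to 433, that at 1 week up for 1136 to 1260 and down for 645 to 828, and the crushed side higher for 177 to 223 and lower for 560 to 750. The changes of the steady genes, which were not called, crossed 0, with -0.36 to 0.12 for Crispld1 (0.034 with quantile normalization), -0.28 to 0.040 for Fcrls, -0.29 to 0.056 for Rimklb, -0.20 to 0.43 for Rnf112, -0.34 to 0.28 for Sh3gl3 and -0.35 to 0.44 for Vamp1. When the fit held the 20 arrays of these times alone 72 of the 81 called named genes kept their call, and 236 probe sets were higher and 492 lower. With the photoreceptor level as a covariate 285 were higher and 597 lower. The cause was not tested. For dim genes the floor sets the limit, and 5 pairs a time limit all others.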

Other observations

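Several gene lists showed no called change between the times. Of 28 interferon-stimulated genes limma called none. Before adjustment 0 were higher and 0 lower at p under 0.05, and the list had a median change of -0.066. The antiviral synthetase Oas3 had the largest change in size among them, -1.57 (SE 1.14). None of 10 MHC class I genes was called (1 higher and 0 lower at p under 0.05 before adjustment), and the peptide transporter Tap2 had 0.71 (SE 0.31). None of 25 genes of hypoxia and glycolysis was called (8 higher and 2 lower), and the peptide hormone adrenomedullin, Adm, had 1.01 (SE 0.41).

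The genes of cholesterol synthesis, a pathway that supplies myelin, had a negative median crush effect at both times. Of 19 genes, 5 were called down at 3 weeks and 9 at 1 week (background 1.77% and 3.92%). The median crush effect was -0.69 at 3 weeks and -0.88 at 1 week. All 19 changes were positive, with a median of 0.23 against -0.00053 over all genes, but none was called by limma (8 higher and 0 lower before adjustment). Lanosterol synthase, Lss, had the largest change. It had 472 to 528 in crushed and 901 to 1361 in contralateral ONHs at 3 weeks, against 260.4 to 368 in crushed and 973 to 1486 in contralateral ONHs at 1 week, and its change of 0.97 (SE 0.20, limma adjusted p = 0.0038) was below 2-fold. The other probe sets of Lss did not share this change, with 0.044 (SE 0.22) and -0.074 (SE 0.20).

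Transcripts of neighbouring tissue were uneven between arrays. Of 19 photoreceptor genes none was called by limma (0 higher and 0 lower before adjustment), although all 19 changes were positive, with a median of 0.62. Aipl1, a chaperone of photoreceptors, had 43.4 to 2604 in crushed and 14.4 to 2081 in contralateral ONHs at 3 weeks, against 17.0 to 2479.6 in crushed and 39.97 to 5146 in contralateral ONHs at 1 week. Of 12 pigment cell genes none was called (0 higher and 0 lower), and Pmel of the melanosome had 462 to 2318 in crushed and 288 to 3301 in contralateral ONHs at 3 weeks, against 516 to 1115 in crushed and 669.5 to 3137 in contralateral ONHs at 1 week. Of 11 genes of skeletal muscle none was called (2 higher and 0 lower), and Pvalb, a calcium-binding protein of fast muscle fibres and of some neurons, had 1066 to 3431 in crushed and 1578 to 4552 in contralateral ONHs at 3 weeks, against 263 to 831 in crushed and 1519 to 1815 in contralateral ONHs at 1 week, a change of 1.54 (SE 0.57, limma adjusted p = 0.0731). The part of such tissue in other results was not tested, apart from the covariate for photoreceptors.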
